A study of Mus musculus with 8 samples.

Results

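The 46 genes described here encode proteins that copy DNA in S phase, the stage of the cell cycle in which the genome is duplicated. The rule that chose them used name and function and no measured value, though earlier results of these data were known, and they were taken from 27998 genes counted in 8 single-cell RNA libraries of microglia, the macrophages that reside in brain and spinal cord. Each library held YFP (+) cells sorted from the lumbar spinal cord, with the cords of 3 mice pooled per library, so a group has 1 library and no replicate. The control libraries came from C57BL/6 mice of genotype Cx3cr1-yfp-creER/+, and the A20 cKO libraries from mice of genotype Cx3cr1-yfp-creER/+; Tnfaip3 fl/fl, in which the gene for A20, an inhibitor of NF-κB signalling, can be deleted. For each genotype there was a naive library and libraries taken 1, 2 and 3 days after bilateral sciatic nerve transection, an injury outside the cord. YFP and the tamoxifen-activated Cre recombinase are both made from the Cx3cr1 locus, so other cells that use this locus can be sorted and recombined along with microglia, and each injured library is compared with naive mice, not with an uninjured side.

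Before S phase, origins are licensed: CDC6 and CDT1 load the MCM helicase on DNA, and geminin holds CDT1 back. At the start of S phase CDC45 and the GINS complex join MCM and fire the origin, polymerases alpha, delta and epsilon copy the strands, the clamp PCNA and its loader RFC keep them on DNA, and RPA coats the single strands. Ribonucleotide reductase, thymidylate synthase and thymidine kinase supply the nucleotides, and the histone chaperones CAF-1 and ASF1B rebuild chromatin behind the fork. Resting adult microglia divide rarely, and E2F transcription factors are known to drive many of these genes as cells leave the resting state.

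The libraries held between 1648400 and 15817426 UMIs (unique molecular identifiers, counted RNA molecules), and 14626 of 14883 barcodes were kept as cells, with a median of 2780 to 4274 UMIs per cell. Levels are given as CPM, the UMIs of a gene per 1000000 UMIs of a library's kept cells. Every range in parentheses is a 95% interval for counting error, which leaves out the spread between mice, and no p-value is given because 1 library per group allows no test. All 46 genes had at least 100 UMIs over the libraries, as did 11045 genes in all, and these 11045 form the background for each count. The 5 microglia markers used (P2ry12, Tmem119, Csf1r, Fcrls, Cx3cr1) summed to between 4883 and 12771 CPM per library. Control day 3 and the 4 A20 cKO libraries stood apart from the other control libraries: 6 neutrophil markers summed to 24.4 to 45.6 CPM there and to 0 in control naive, day 1 and day 2, and 6 monocyte markers to 32.4 to 98.9 CPM against 2.99 to 4.49 CPM. These 5 libraries also shared 117 cell barcodes among their 10 pairs, against 90 over the 15 pairs that join them to the other libraries and 27 over the 3 pairs among those. Leaving out every shared barcode kept each count of genes below within 1.5 times its value. Every comparison of these 5 libraries with control naive, day 1 or day 2 crosses this divide, which cannot be told apart there from day or genotype. Tnfaip3 itself had 6.83 to 25.3 CPM across the control libraries and 42.3 to 67.7 CPM across those labelled A20 cKO. Its level was thus higher, not lower, in the libraries labelled A20 cKO; the libraries read 3′ ends, and where the deleted part lies is not given in the sources used here, so this gene cannot check the labels.

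The start regions of the genes differed in a way that lies outside the expression data. RefSeq (GRCm38.p6) listed a start for 38 of the 46 genes (all but Mcm4, Gmnn, Gins1, Gins2, Tipin, Pole, Rfc2 and Usp1), and 12 of these (31.6%) held an 8-base E2F-type word within 250 bases before to 50 bases after the start, against 2.32% of 27025 genes. The words searched, on both strands and counted also where they overlap, were TTTGGCGC, TTTCGCGC, TTTCCCGC and TTTGCCGC. By role, 6 of 7 origin licensing genes held a word (Mcm3, Mcm5, Mcm6, Mcm7, Cdc6 and Cdt1), 2 of 4 origin firing and fork genes did (Clspn and Dtl), and 2 of 5 polymerase genes did (Pola1 and Pold1). A word stood in 1 of 7 clamp, loader and ligation genes (Rfc3), in 1 of 6 chromatin genes (Hells) and in none of the 5 nucleotide supply genes, the 3 RPA genes or Ung. The words did not separate the genes by their day 1 level in control mice, described below: 6 of the 12 genes with a word and 13 of the 26 without were then at least 2-fold above naive, with median log2 ratios of 0.99 and 0.97. Mcm2 and Uhrf1 were past 2-fold without a word, and Clspn and Pola1 held a word and were not. G and C made up a median of 62.2% of the bases in the 38 start regions, against 52.7% in all genes. The part of base content in the share of genes with a word was not tested. Of 40 other replication genes with a listed start, from a list described below, 11 (27.5%) held a word, at a median of 62.3% G and C. The 18 genes of mitosis used below as a contrast had a listed start for 15 and a word in 1. In these 15, CCAAT stood in 86.7% and the word TTTGAA in 66.7%, against 63.2% and 10.5% of the replication genes and 37.9% and 18.1% of all genes. The 160 bases before the start are shown for Mcm5, Mcm6 and Dtl, as examples that hold a word, and for Rrm1 and Rrm2, the subunits of ribonucleotide reductase, as examples that hold none. Capitals mark the E2F-type words, whose first bases lay 153 and 149 bases before the start in Mcm5, 110, 106 and 47 in Mcm6, and 8 in Dtl. Rrm1 and Rrm2 held none of the searched spellings in this window. A match is a description of letters, and binding was not measured.
Mcm5 (chr8:75109349-75109508, plus strand): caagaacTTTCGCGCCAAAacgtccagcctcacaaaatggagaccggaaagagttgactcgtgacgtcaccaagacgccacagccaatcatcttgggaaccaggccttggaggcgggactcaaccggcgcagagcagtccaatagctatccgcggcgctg
Mcm6 (chr1:128359706-128359865, minus strand): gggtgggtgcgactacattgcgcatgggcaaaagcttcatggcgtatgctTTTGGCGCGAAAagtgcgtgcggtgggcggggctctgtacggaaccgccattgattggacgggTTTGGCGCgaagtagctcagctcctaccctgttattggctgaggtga
Dtl (chr1:191575545-191575704, minus strand): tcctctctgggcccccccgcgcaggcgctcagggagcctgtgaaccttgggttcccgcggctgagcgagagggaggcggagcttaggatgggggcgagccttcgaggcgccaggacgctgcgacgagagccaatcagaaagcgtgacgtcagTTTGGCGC
Rrm1 (chr7:102441535-102441694, plus strand): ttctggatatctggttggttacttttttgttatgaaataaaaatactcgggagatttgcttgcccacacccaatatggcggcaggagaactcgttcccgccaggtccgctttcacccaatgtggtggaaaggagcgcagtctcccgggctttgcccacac
Rrm2 (chr12:24708094-24708253, plus strand): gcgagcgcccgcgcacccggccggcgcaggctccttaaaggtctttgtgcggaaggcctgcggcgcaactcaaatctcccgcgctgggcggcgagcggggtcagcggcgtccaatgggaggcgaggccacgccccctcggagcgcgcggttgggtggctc

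Replication transcripts were lowest in naive control microglia and highest 2 days after nerve injury. Summed over the 46 genes, naive control cells held 679 CPM (639.9 to 721), and the sum was 1121 CPM (1104 to 1139) a day after injury, 2308 CPM (2284 to 2332) at day 2 and 1273 CPM (1247 to 1299) at day 3. In the libraries labelled A20 cKO the sum began at 972 CPM (952 to 993), reached 1434 CPM (1391 to 1477) at day 1 and 1782 CPM (1735 to 1830.0) at day 2, and ended at 1397 CPM (1351 to 1444). Within the control libraries 41 of 46 genes had their highest level on day 2 (44 of 46 without day 3, which lies across the divide), and 39 of 46 stepped up from naive to day 1 and again to day 2. Within the A20 cKO libraries 35 of 46 were highest on day 2, 7 on day 1 and 4 on day 3. Of all 8 libraries, across the divide, control naive was the lowest for 31 genes and control day 2 the highest for 33. From a summed level, more cells with a transcript and more transcript per cell cannot be told apart.

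**Figure D1:**
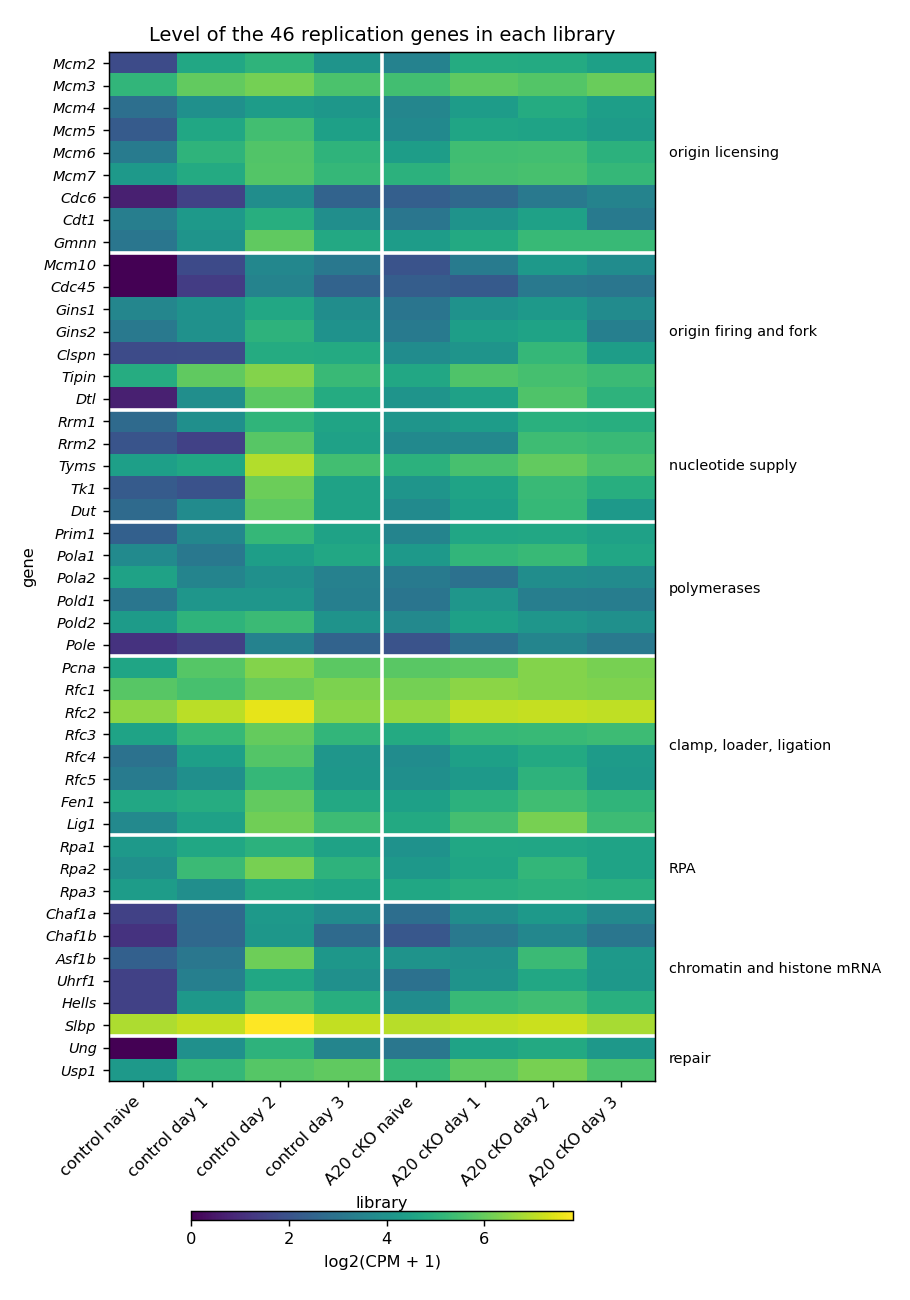
Level of each of the 46 replication genes (rows, grouped by role) in the 8 libraries (columns), as log2(CPM + 1). The control day 2 column is the brightest for most genes, Slbp and Rfc2 are high in every library, and Mcm10, Cdc45 and Ung are at 0 in control naive.

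The question of the first comparison was how early after injury these genes moved, and the answer differed by role. On day 1 against naive in control mice, 22 of 46 genes (47.8%) were at least 2-fold higher and 1 was at least 2-fold lower, where 4.66% of the 11045 genes were higher and 13% lower. The median log2 ratio of the genes was 0.94, against -0.19 for all genes. Origin licensing genes had a median of 1.08, with 6 of 9 past 2-fold and all 9 above 0. The 6 chromatin and histone mRNA genes had a median of 1.55, with 4 past 2-fold. The 2 repair genes, 1 of them at 0 UMIs in naive, had a median of 3.25, or 1.95 with that zero set to a floor of 3 UMIs. Their summed level was 2.74-fold (1.92 to 4.19) naive. Firing and fork genes had a median of 1.08, which became 0.37 with zeros set to a floor of 3 UMIs, and the clamp, polymerase and RPA groups had medians of 0.69, 0.53 and 0.40. Nucleotide supply genes had the lowest median, 0.22, with 2 of 5 past 2-fold. In summed level the licensing genes were 2.42-fold (2.05 to 2.88) and the nucleotide genes 1.44-fold (1.12 to 1.91) naive, the latter close to the clamp (1.45-fold) and chromatin (1.45-fold) groups and above the polymerases (1.23-fold). None of the 18 mitotic genes was 2-fold higher, and their summed level was 32.1 (23.97 to 42.1) CPM in naive and 25.7 (23.1 to 28.5) CPM on day 1. When ratios were set against the median gene, 26 of 46 genes were higher and 0 lower, and among all genes the share of the calls that were higher went from 26.4% to 41.7%.

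Among the licensing genes, Mcm2 to Mcm7 encode the subunits of the helicase ring. Mcm2 read 2.47, 24.8, 33.3 and 15.5 CPM over the control time course (naive, then days 1, 2 and 3) and 10.1, 27.4, 26.4 and 20.9 CPM over that of A20 cKO. Its day 1 level was far above naive, with a log2 ratio of 3.16 (1.96 to 5.21), one of the 3 highest on that day, and most of its day 2 level was already present on day 1. Mcm5 had 3.70, 24.2, 42.7 and 20.6 CPM over the control time course and 12, 23.4, 22.1 and 18.5 CPM over that of A20 cKO, and its log2 ratio on control day 1 was 2.59 (1.57 to 4.16). Mcm6 had 8.64, 32.7, 50.8 and 33.1 CPM over the control time course and 19.3, 41.9, 42.5 and 31.5 CPM over that of A20 cKO, with a log2 ratio of 1.87 (1.16 to 2.804) on control day 1. Both of these subunits, like Mcm2, were past 2-fold on day 1, in contrast to Mcm3 and Mcm7, which started from a higher naive level. Mcm3 had 34.6, 60.6, 72.1 and 48.03 CPM over the control time course and 42.8, 57.5, 51.7 and 64.1 CPM over that of A20 cKO, and day 2 exceeded day 1 by only 0.25 (0.12 to 0.38) on the log2 scale. Mcm7 stood at 17.3, 26.8, 52.3 and 35.7 CPM over the control time course and 31.5, 43.6, 45.8 and 35.8 CPM over that of A20 cKO. Gmnn encodes geminin, the inhibitor of licensing that accumulates once S phase is under way. Its levels were 7.41, 15.6, 59.8 and 25.7 CPM over the control time course and 18.9, 25.8, 37.2 and 37.4 CPM over that of A20 cKO, so its larger step in control mice came between day 1 and day 2, at a log2 ratio of 1.93 (1.72 to 2.15). Mcm4, Cdc6 and Cdt1 averaged under 20 CPM and ranged from 0.617 CPM (Cdc6, control naive) to 29.0 CPM (Cdt1, control day 2). The values of Cdt1 are uncertain, because Gm20388 is annotated on the same strand over its 3′ end and was counted too.

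The firing and fork genes were split. Dtl, a part of the ligase that removes CDT1 in S phase, read 0.617, 13.4, 57.3 and 27.3 CPM over the control time course and 15.7, 21.5, 49.4 and 32.7 CPM over that of A20 cKO. With 1 UMI in control naive, its log2 ratio of 3.86 (1.95 to 9.76) on day 1 and 5.95 (4.05 to 11.84) on day 2 has a wide interval, but Dtl was among the 3 highest on each control day. Tipin, a fork protection factor, read 27.8, 59.5, 82.3 and 38.6 CPM over the control time course and 25, 50.2, 44.8 and 39.3 CPM over that of A20 cKO, and was already 1.08 (0.67 to 1.56) above naive on control day 1 on the log2 scale. Clspn, which encodes claspin and carries the checkpoint signal at stalled forks, read 2.47, 2.56, 27.4 and 26.5 CPM in control mice. Its step from day 1 to day 2 was 3.400 (2.93 to 3.95) on the log2 scale. No step was seen from naive to day 1, but naive held only 4 UMIs (0.673 to 6.32 CPM), which leaves that ratio uncertain. Gins1, Gins2, Mcm10 and Cdc45 averaged under 20 CPM and reached 10.3 to 32.1 CPM at their highest. Mcm10 and Cdc45, which turn the loaded helicase on, had 0 UMIs in control naive, where 3 UMIs would be 1.85 CPM. On control day 2 they read 6.15 and 5.57 times that floor. Ratios to the floor are not lower limits, because the exact upper limit for 0 UMIs there was 2.28 CPM. On day 1 Mcm10 and Cdc45 lay below 2-fold against the floor. The count of genes past 2-fold on that day thus becomes 20 of 46 with zeros set to the floor.

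Most of the nucleotide supply difference came between day 1 and day 2. Rrm2, the regulated subunit of ribonucleotide reductase, read 3.09, 1.85, 53.9 and 21.3 CPM over the control time course and 12.2, 11.6, 40.9 and 38.6 CPM over that of A20 cKO. Tk1, the S phase thymidine kinase, read 3.70, 2.92, 65.3 and 21.7 CPM over the control time course and 15.9, 22.1, 38.2 and 29.1 CPM over that of A20 cKO. Neither differed on control day 1 from naive beyond counting error, with log2 ratios of -0.85 (-2.14 to 0.999) and -0.44 (-1.59 to 1.18), while from day 1 to day 2 they had the 2 largest ratios of the 46 genes, 4.84 (4.303 to 5.49) and 4.47 (4.03 to 4.97). Tyms, thymidylate synthase, read 20.4, 24.1, 121 and 42.7 CPM over the control time course and 31.7, 45.9, 60.98 and 46.4 CPM over that of A20 cKO. It too was level from naive to day 1 in control mice and 2.32 (2.16 to 2.497) above day 1 on the log2 scale a day later. Rrm1, the large subunit, had 5.55, 14.01, 33.5 and 22.5 CPM over the control time course and 16.03, 18.8, 29.99 and 28.7 CPM over that of A20 cKO. Dut, which removes dUTP, had 5.55, 12.6, 58.6 and 21.7 CPM over the control time course and 12.3, 20.5, 36.9 and 17.7 CPM over that of A20 cKO. Rrm1 and Dut were the nucleotide genes past 2-fold on control day 1, at 1.26 (0.38 to 2.49) and 1.11 (0.22 to 2.33). Summed, the 5 genes had covered 5.86% (2.53 to 9.19) of their naive to day 2 difference by day 1 in control mice, against 45.5% (41.3 to 49.7) for the licensing genes, 27.1% (25.01 to 29.3) for all 46 genes and -0.739% (-1.80 to 0.319) for the mitotic genes. The control days share the naive library, of 568 cells and 1620481 UMIs, so its counting error enters each of them.

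**Figure D2:**
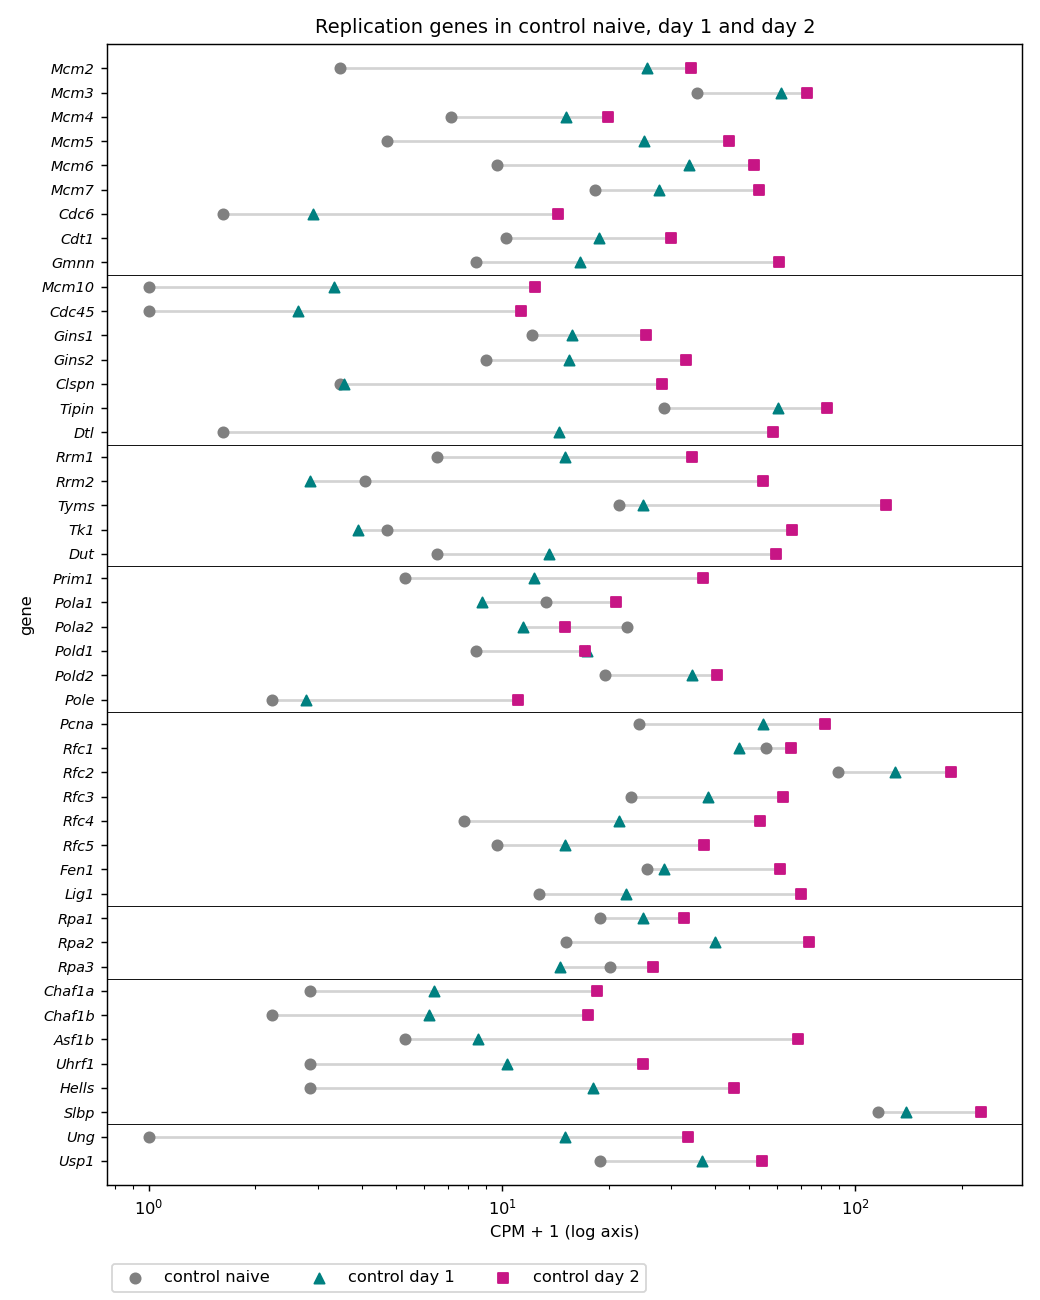
Level of each of the 46 genes in control naive (circles), day 1 (triangles) and day 2 (squares), as CPM + 1 on a log axis, with thin lines between role groups. Mcm2, Mcm5 and Mcm6 have their triangles well to the right of the circles, whereas the triangles of Rrm2, Tk1, Tyms and Clspn lie on or near the circles and their squares far to the right.

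Polymerase genes had the smallest summed ratio on control day 2, 1.05 (0.77 to 1.35) on the log2 scale. Pold2, a small subunit of polymerase delta, read 18.5, 33.4, 39.5 and 15.1 CPM over the control time course and 11.9, 20.8, 16.2 and 14.2 CPM over that of A20 cKO. Pola1, the catalytic subunit of polymerase alpha, read 12.3, 7.75, 19.98 and 24.6 CPM over the control time course and 17.6, 34.7, 37.2 and 23.6 CPM over that of A20 cKO, and was -0.700 (-1.37 to 0.096) on the log2 scale against naive on control day 1. Pola2, the second subunit of polymerase alpha, was the exception among the 46: it read 21.6, 10.5, 14.1 and 9.88 CPM in control mice, highest in naive, and 8.07, 6.60, 13.2 and 12.6 CPM in A20 cKO mice. It was the lowest gene on all 3 control days, at -1.06 (-1.59 to -0.47), -0.63 (-1.13 to -0.06) and -1.14 (-1.73 to -0.502) on the log2 scale, and the 1 gene at least 2-fold lower on days 1 and 3. Prim1 (the primase subunit), Pold1 and Pole averaged under 20 CPM. Prim1 went from 4.32 CPM in naive to 35.9 CPM on day 2 in control mice, while Pold1 reached 16.4 CPM on day 1 and 16.2 CPM on day 2, a day 2 to day 1 ratio of -0.02 (-0.28 to 0.24) and the lowest of the 46.

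The clamp, loader and ligation genes ranged from 6.79 CPM (Rfc4) to 88.2 CPM (Rfc2) in naive control microglia, and their median log2 ratio on control day 2 was 1.61. Pcna, the clamp, read 23.4, 53.7, 81.1 and 56.4 CPM over the control time course and 55.6, 57.8, 82.4 and 72.8 CPM over that of A20 cKO. Rfc1 read 54.9, 45.7, 64.7 and 76.4 CPM over the control time course and 71.5, 86.5, 82.1 and 78.3 CPM over that of A20 cKO. Pcna stepped up on each of the first 2 days in control mice, whereas Rfc1, the large loader subunit, did not differ from naive beyond counting error on control day 2, at 0.23 (-0.08 to 0.57). Rfc2 had 88.2, 129, 185 and 84.5 CPM over the control time course and 93.2, 135, 139.8 and 134 CPM over that of A20 cKO. Rfc3 had 22.2, 37.2, 61.5 and 34.2 CPM over the control time course and 26.8, 36.98, 37.6 and 39.7 CPM over that of A20 cKO. Rfc4 had 6.79, 20.3, 52.5 and 16.3 CPM over the control time course and 13.1, 20.8, 25.7 and 18.5 CPM over that of A20 cKO. Of these loader subunits Rfc4 had the largest ratio on control day 2, 2.89 (2.11 to 3.96), and Rfc5, under 20 CPM on average, ranged from 8.64 to 36.2 CPM. Fen1, the nuclease that trims Okazaki fragments, read 24.7, 27.7, 60.2 and 25.4 CPM over the control time course and 20.7, 31.4, 41.5 and 33.8 CPM over that of A20 cKO. Lig1, the ligase that joins them, read 11.7, 21.4, 69.2 and 39.9 CPM over the control time course and 25.7, 43.9, 73.2 and 40.5 CPM over that of A20 cKO. Fen1 was level from naive to day 1 (0.15, -0.31 to 0.67) while Lig1 was higher (0.83, 0.200 to 1.62), and both had their highest control level on day 2.

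The 3 RPA subunits did not move together in control mice. Rpa1 read 17.9, 24.04, 31.8 and 21.96 CPM over the control time course and 14.9, 24.4, 23.7 and 22.04 CPM over that of A20 cKO. Rpa2 read 14.2, 38.98, 72.8 and 32.3 CPM over the control time course and 17.2, 23.4, 35.6 and 22.04 CPM over that of A20 cKO. Rpa3 read 19.1, 13.6, 25.7 and 23.2 CPM over the control time course and 24.1, 29.1, 31.3 and 29.5 CPM over that of A20 cKO. Rpa2 was past 2-fold on each control day against naive, at 1.43 (0.86 to 2.13), 2.33 (1.77 to 3.02) and 1.16 (0.56 to 1.87), and neither of the other subunits was on any. In A20 cKO mice Rpa2 was past 2-fold on day 2 alone.

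Chromatin genes included the most abundant member. Slbp, which binds the end of histone mRNA, read 115, 138, 226 and 135 CPM over the control time course and 126, 138, 145 and 110.2 CPM over that of A20 cKO. Hells, a chromatin remodeller, read 1.85, 17.1, 44.4 and 29.2 CPM over the control time course and 13.01, 37.6, 41.9 and 29.9 CPM over that of A20 cKO. Hells belonged with the genes already high on day 1, at 2.99 (1.64 to 5.49) in control and 1.53 (1.15 to 1.92) in A20 cKO mice. Asf1b, a histone chaperone, read 4.32, 7.54, 67.8 and 16.7 CPM over the control time course and 15.4, 14.2, 39.6 and 17.7 CPM over that of A20 cKO. Its main step came on day 2 in both, and against day 1 it was 3.16 (2.88 to 3.47) in control mice. Chaf1a and Chaf1b, of CAF-1, and Uhrf1, which couples DNA methylation to the fork, averaged under 20 CPM and ranged from 1.23 to 25.1 CPM. Of the repair genes, Usp1, a deubiquitinase that acts on PCNA, read 17.9, 35.8, 53.3 and 59.3 CPM over the control time course and 37.1, 58.4, 73.5 and 47.6 CPM over that of A20 cKO. Ung, which removes uracil from DNA, had 0 UMIs in control naive and 14.1, 32.6 and 10.8 CPM on the days that followed. On days 1 and 2 it read 7.61 and 17.6 times the floor of 3 UMIs. In A20 cKO mice Ung read 7.62, 22.1, 26.04 and 16.9 CPM.

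On day 2 against naive in control mice, 40 of 46 genes (87.0%) were at least 2-fold higher and 0 were 2-fold lower, where 6.74% of all genes were higher and 10.5% lower. The median log2 ratio was 2.51, against -0.15 for all genes, and the summed level was 3.40-fold (3.20 to 3.61) the naive level. All 9 licensing, all 7 firing and fork and all 5 nucleotide genes were past 2-fold, with medians of 2.51, 3.30 and 3.32, the second being 2.48 with zeros set to the floor. Among the 43 genes with UMIs in both libraries, Dtl, Hells (4.36, 3.03 to 6.86) and Tk1 (4.03, 3.01 to 5.59) had the highest ratios. Ung, Mcm10 and Cdc45, at 0 UMIs in naive, have the ratios to the floor given above and no rank. The lowest ratios were those of Pola2, Rfc1 and Rpa3 (0.403, -0.104 to 1.001). All 18 mitotic genes were past 2-fold as well, from 32.1 CPM in naive to 899 (885 to 914) CPM in sum. Against the median gene, 41 of 46 were higher, and among all genes the share of the calls that were higher went from 39.0% to 52.6%. Day 2 against day 1, which does not use the small naive library, gave 25 of 46 higher and 0 lower, where 5.16% of all genes were higher and 2.28% lower. All 5 nucleotide genes were past 2-fold in that comparison and 2 of 9 licensing genes were, Cdc6 and Gmnn. The genes with the lowest ratios there were Pold1, Pold2 (0.24, 0.07 to 0.42) and Mcm3.

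On day 3 the control library, which is one of the 5 that stood apart, had 29 of 46 genes at least 2-fold above naive and 1 lower, where 11.4% of all genes were higher and 4.84% lower. The median log2 ratio was 1.49, against 0.06 for all genes. Among the 43 genes with UMIs in both libraries, Dtl (4.89, 2.97 to 10.78), Hells (3.76, 2.41 to 6.27) and Clspn (3.26, 2.04 to 5.31) had the highest ratios. Ung and Mcm10 read 5.86 and 4.23 times the naive floor. Pola2, Pold2 (-0.31, -0.89 to 0.34) and Rfc2 (-0.07, -0.33 to 0.21) had the lowest ratios. The replication genes kept 36.4% (34.1 to 38.7) of their naive to day 2 difference on day 3, and the mitotic genes 84.6% (81.8 to 87.3), at 766 (746 to 786) CPM. Pola1, Rfc1 and Usp1 were the genes with their highest control level on day 3.

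**Figure D3:**
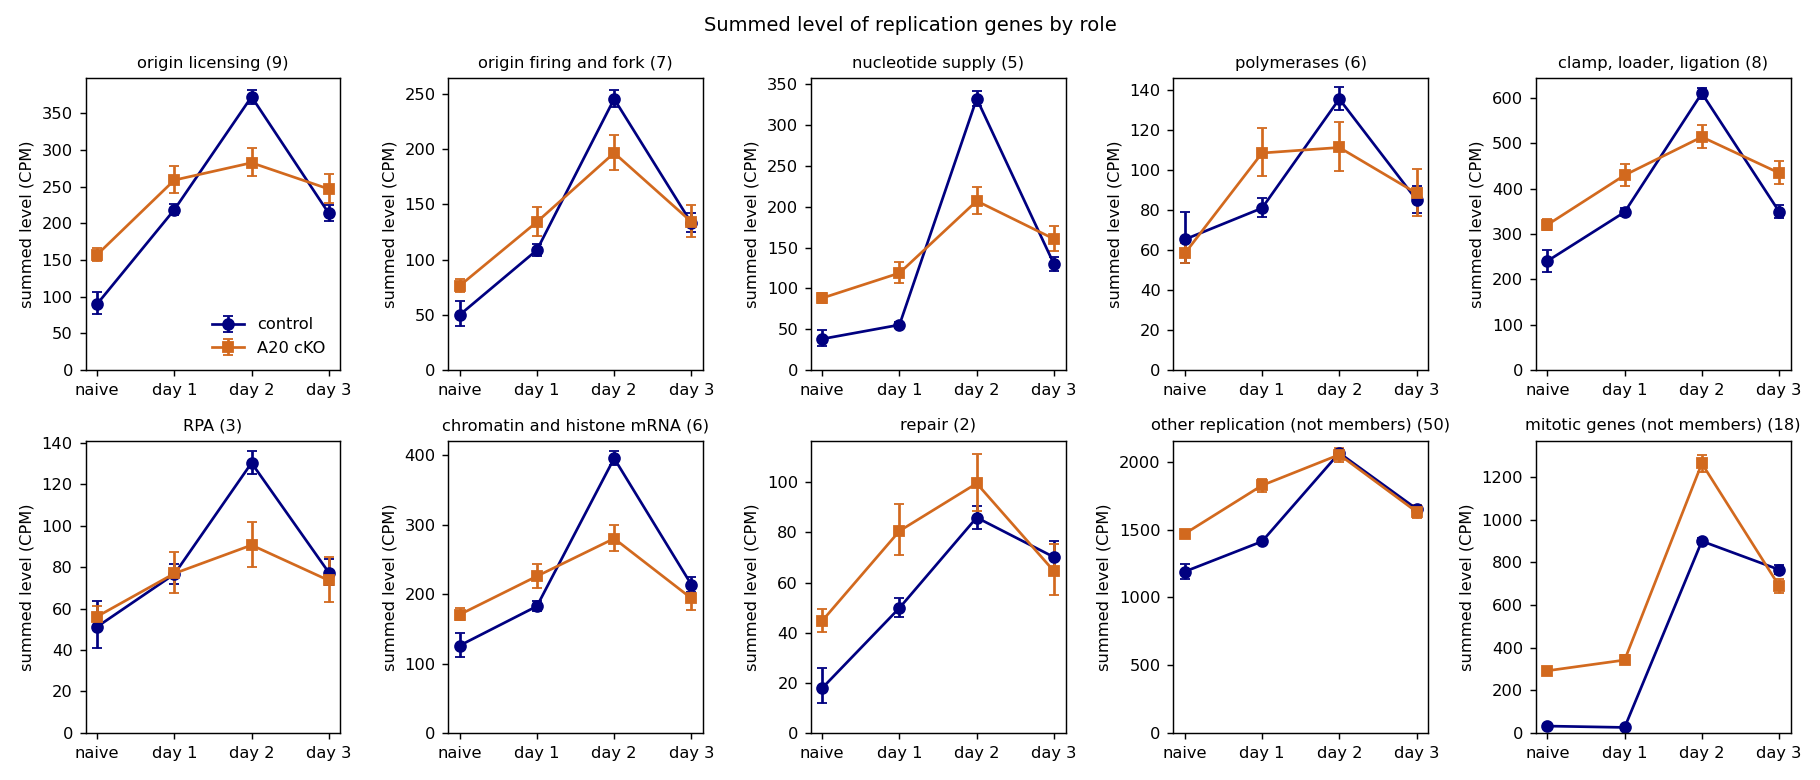
Summed level (CPM) of the genes of each role, of 50 other replication genes and of 18 mitotic genes, in naive mice and on days 1, 2 and 3, with control as circles, A20 cKO as squares and bars as 95% counting intervals. The licensing panel is already higher on day 1 in both genotypes, the control nucleotide panel goes from 38.3 to 55.5 CPM from naive to day 1 and to 332 CPM on day 2, and the control mitotic panel reads 32.1 and 25.7 CPM at those times.

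In naive mice the genotypes were compared without injury, across the divide between libraries. In the library labelled A20 cKO naive, 23 of 46 genes were at least 2-fold above control naive and 1, Pola2, was lower (-1.43, -2.02 to -0.79), where 9.93% of all genes were higher and 4.74% lower. The median log2 ratio was 1.01, against 0.04 for all genes, and the summed level was 1.43-fold (1.34 to 1.53) that of control naive. By role, 4 of 5 nucleotide, 5 of 9 licensing and 5 of 6 chromatin genes were past 2-fold, against 1 of 6 polymerase genes, 2 of 8 clamp genes and 0 of 3 RPA genes. Among the 43 genes with UMIs in both libraries, the highest ratios were those of Dtl (4.09, 2.17 to 9.98), Hells (2.60, 1.23 to 5.11) and Clspn (2.23, 1.002 to 4.30). Ung and Cdc45 read 4.12 and 2.12 times the control naive floor. The lowest ratios were those of Pola2, Pold2 (-0.66, -1.24 to -0.0033) and Gins1 (-0.64, -1.38 to 0.23). All 18 mitotic genes were past 2-fold too, at 292 (281 to 303) CPM in sum. The neutrophil and monocyte marker sums went from 0 and 3.70 CPM to 37.7 and 38.3 CPM between these libraries, and their part in the result was not tested.

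After injury in A20 cKO mice the nucleotide and mitotic genes again had low medians on day 1, and the chromatin genes again had a higher median than the licensing genes. On day 1, 15 of 46 genes were at least 2-fold above A20 cKO naive and 0 lower, where 3.26% of all genes were higher and 2.8% lower. By role, the medians were 1.17 for chromatin genes (4 of 6 past 2-fold), 1.06 for polymerases (3 of 6), 1.01 for firing and fork genes (4 of 7) and 0.77 for licensing genes (3 of 9). They were 0.502 for clamp genes, 0.48 for nucleotide genes and 0.46 for RPA, with none past 2-fold in these groups, and 0 of 18 mitotic genes were. The 2 repair genes had a median of 1.10 (1 of 2). In summed level the polymerases were 1.86-fold A20 cKO naive, against 1.23-fold in control mice on the same day. The nucleotide genes, at 1.35-fold, were close to the clamp (1.34-fold) and chromatin (1.32-fold) groups. Ung (1.54, 1.03 to 2.05), Hells and Mcm10 (1.505, 0.67 to 2.34) were highest, and Pola2, Asf1b (-0.102, -0.64 to 0.39) and Cdc45 (-0.07, -1.24 to 0.899) lowest. By day 1 the polymerase genes had covered 94.8% (64.1 to 125) of their naive to day 2 difference, the licensing genes 81.1% (62.1 to 100.2), the nucleotide genes 25.8% (14.2 to 37.4) and the mitotic genes 5.16% (2.74 to 7.57).

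On day 2, 26 of 46 genes were at least 2-fold above A20 cKO naive and 0 lower, where 4.86% of all genes were higher and 4.56% lower. The median log2 ratio was 1.07, against -0.07 for all genes. Mcm10 (2.54, 1.86 to 3.28), Uhrf1 (1.92, 1.41 to 2.44) and Pole (1.84, 1.07 to 2.64) were highest, and Rfc1 (0.200, -0.02 to 0.41), Slbp (0.202, 0.04 to 0.36) and Mcm3 (0.28, -0.0045 to 0.54) lowest. The 18 mitotic genes were all past 2-fold, at 1264 (1224 to 1304) CPM, above their control day 2 sum, while the replication genes summed to less than on control day 2. Between A20 cKO naive and day 2 the microglia markers went from 8714 to 4883 CPM and the monocyte markers from 38.3 to 98.9 CPM, and their part in these ratios was not tested. That cross of the genotypes on day 2 lies across the divide between libraries and rests on 1 library each. On day 3, 11 of 46 genes were at least 2-fold above A20 cKO naive and 0 lower, where 3.79% of all genes were higher and 3.82% lower. Mcm10 (2.096, 1.32 to 2.89), Rrm2 (1.66, 1.25 to 2.06) and Pole (1.39, 0.47 to 2.27) were highest, and Slbp (-0.19, -0.39 to -0.01), Rfc1 (0.13, -0.11 to 0.36) and Cdt1 (0.18, -0.62 to 0.89) lowest. The background of these A20 cKO counts depended on the minimum of 100 UMIs per gene. Among all 17690 genes with at least 1 UMI, 22.1, 23.0 and 23.0% were at least 2-fold higher on days 1, 2 and 3. The shares of the 46 genes were 32.6, 56.5 and 23.9%. Without the minimum, a gene with 0 UMIs in both libraries counts as 2-fold higher. The reason is that 0.5 UMI is added to each sum and the naive library is larger (8919100 kept UMIs, against 2541386 on day 3). Library size thus sets part of that background, and it cannot serve as a measure for the 46 genes, all with at least 100 UMIs. Against the median gene 14 of 46 were higher on day 3, and with another scaling, by median-of-ratios size factors, the share of all calls that were higher went from 49.8% to 61.2%.

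Day 3 gave a comparison of genotypes within the 5 libraries that stood apart together. In A20 cKO day 3 against control day 3, 1 of 46 genes (2.17%) was at least 2-fold higher and 0 lower, where 3.28% of all genes were higher and 4.93% lower, so the share of the replication genes did not exceed the background. The median log2 ratio was 0.11, against -0.11 for all genes. That gene was Cdc6, the MCM loader, at 10.2 against 4.67 CPM and 1.14 (0.34 to 1.91) on the log2 scale, followed by Rrm2 (0.86, 0.48 to 1.23) and Pole (0.77, -0.12 to 1.59). Cdt1 (-0.71, -1.49 to -0.04), Gins2 (-0.64, -1.37 to -0.02) and Rpa2 (-0.54, -0.997 to -0.12) were lowest. With median-of-ratios size factors the share of all calls that were higher went from 39.96% to 50.1%, and again 1 of the 46 was at least 2-fold higher.

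To ask how many cells held these transcripts, each cell was thinned to 2000 UMIs, which left out 935 shallower cells, and the replication genes found in it were counted. Cells with 5 or more of the 46 genes made up 0.598% (0.123 to 1.74) of naive control cells, 6.54% (5.71 to 7.45) a day after injury, 28.6% (27.1 to 30.1) at day 2 and 11.3% (9.94 to 12.9) at day 3. In the libraries labelled A20 cKO they made up 5.74% (4.88 to 6.70), 13.4% (11.1 to 15.9), 16.9% (14.1 to 20.1) and 10.8% (8.29 to 13.7) in the same order. Unthinned cells gave 3.70, 31.1, 60.2 and 18.3% over the control time course and 9.82, 26.0, 33.6 and 24.2% over that of A20 cKO. Control day 1 lay below day 3 at 5 or more genes but above it at 3 or more genes (29.5% against 23.7%) and without thinning, so the order of these days, which lie across the divide, depends on the cut and the depth. The class is a range, and cells with 4 or 5 genes, at its edge, were 3.98 to 21.3% of a library. Day 2 cells were shifted as a whole in control mice: the median cell held 3 of the genes against 1 in naive, and 5% of cells held none against 30.5%. The 10% of cells with the most replication UMIs held 28.9 to 30.5% of the replication UMIs in control naive, day 1 and day 2 and 38.4 to 48.5% in the other 5 libraries. Of 26 cells with markers of other cell types, all in those 5 libraries, 1 held 5 or more of the genes, at a median depth of 1342.5 UMIs against 3532 in all kept cells. These cells were too few to set a level for free RNA.

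**Figure D4:**
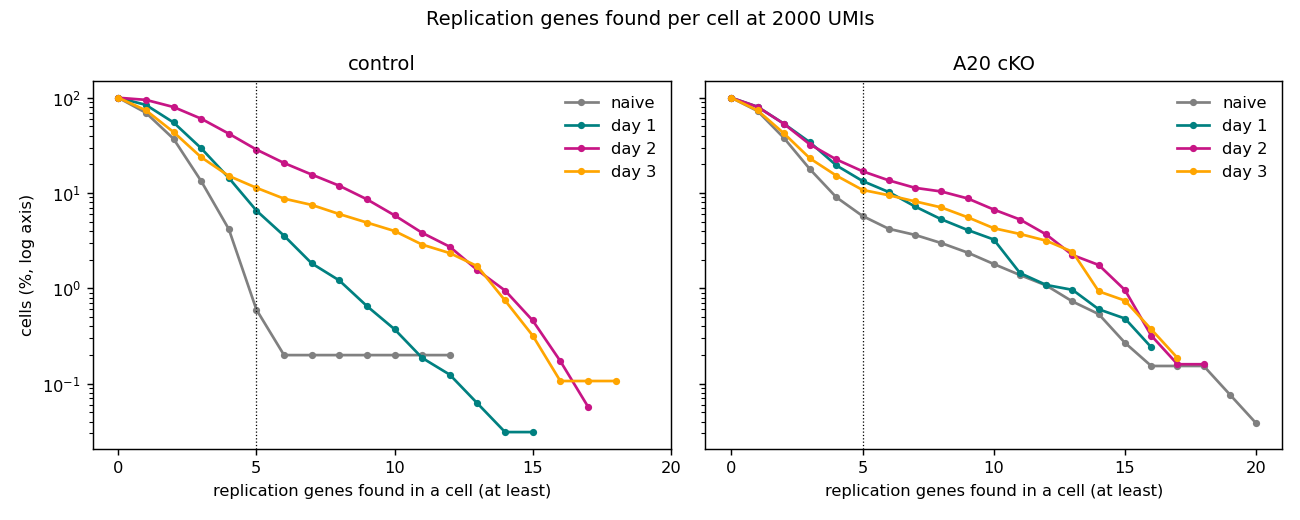
Share of cells (%, log axis) in which at least a given number of the 46 replication genes was found, after thinning to 2000 UMIs, for control (left) and A20 cKO (right), with a dotted line at 5 genes. The control day 1 curve lies above naive up to 10 genes and falls below the day 3 curve from 4 genes on, and control day 2 is the highest control curve up to 12 genes.

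Mcm6 and Rrm2 were taken as examples of single genes. On control day 1, Mcm6 was found in 5.61% (4.84 to 6.46) of cells, against 1.59% (0.690 to 3.12) in naive and 8.59% (7.68 to 9.57) on day 2. Rrm2 was found in 0.248% (0.107 to 0.488) of cells on day 1, against 0.398% (0.0483 to 1.43) in naive and 7.93% (7.05 to 8.88) on day 2. Mcm6 was thus found in more cells on day 1 than in naive, and Rrm2 was not. Without thinning the day 1 shares were 11.9% for Mcm6 and 0.542% for Rrm2. In the 26 cells with markers of other cell types Mcm6 was found in 1, with an exact upper limit of 19.6%, and Rrm2 in 0, which allows a share of up to 13.2% by the same exact limit.

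Whether replication and mitosis transcripts lay in the same cells was asked with 18 mitotic genes (among them Mki67, Top2a, Cdk1, Ccnb1 and Plk1). On control day 1, 183 of 211 cells with 5 or more replication genes (86.7%, 81.4 to 91.0) held none of the mitotic genes. On control day 2 the share was 23.6% (21.01 to 26.4), and 33.2% of the cells held 3 or more mitotic genes. In A20 cKO mice the share with none was 51.3% in naive, 72.1% (62.8 to 80.2) on day 1, 38.7% on day 2 and 34.5% on day 3, and it was 40.8% on control day 3. In both genotypes day 1 therefore had the largest share of replication cells with none of the mitotic genes, leaving out control naive, which had 3 replication cells in all. Mitotic transcripts were rare in control day 1 as a whole, at 25.7 CPM in sum. With 361 mitotic UMIs in 3323 kept cells, most control day 1 cells of any kind held none. The share over all cells is not given here for either day 1 library, so the day 1 peak was not set against it. Of all cells, 1345 of 3480 held no mitotic gene on control day 2 and 1278 of 1878 on control day 3. In A20 cKO mice 2298 of 2612 did in naive and 420 of 626 on day 2. Each of these shares was larger than that of the replication cells, so the shares with none do not by themselves set replication apart from mitosis. In reverse, of cells with 3 or more mitotic genes, 70.1% (65.7 to 74.2) had 5 or more replication genes on control day 2, 53.4% on control day 3, 70% in A20 cKO naive, 76% (54.9 to 90.6, of 25 cells) on A20 cKO day 1, 55% on A20 cKO day 2 and 53.7% on A20 cKO day 3. Control naive and day 1 had 1 and 2 such cells. The median depth of replication cells was 3923 to 5556 UMIs and of the rest 2898.5 to 4215.5 UMIs, again leaving out control naive, and the part of depth in these shares was not tested.

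**Figure D5:**
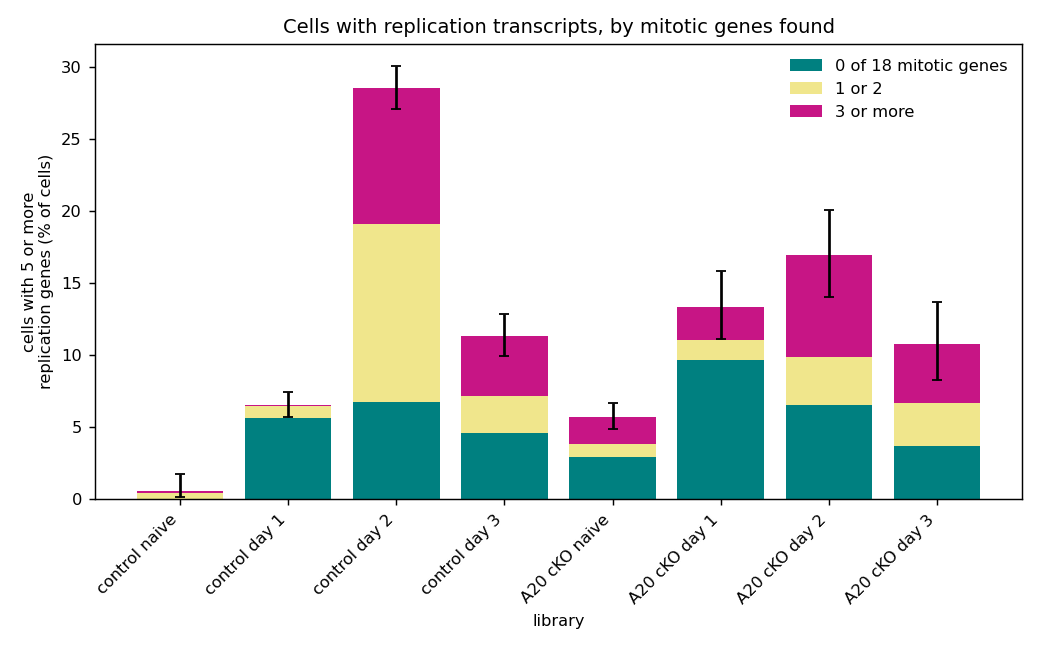
Cells with 5 or more replication genes as a share of all cells (%), per library, split by how many of 18 mitotic genes were found in the same cell, with bars for the 95% interval of the total. On control day 1 nearly the whole bar is cells with 0 mitotic genes, and on control day 2 most of the bar holds at least 1.

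Within a library, the genes differed in how far they followed the mitotic genes. In the 4 libraries with at least 50 cells of 3 or more mitotic genes (control days 2 and 3, A20 cKO naive and day 2), the median log2 ratio of the 46 genes between those cells and cells with no mitotic gene was 1.25, 2.25, 2.96 and 1.95. The same ratio over all genes is not given here, so how far the 46 exceed genes in general was not tested. Rrm2 had the largest ratio on control day 2, 172 against 17.8 CPM or 3.26 (2.80 to 3.76), and 4.82, 6.66 and 4.80 in the other libraries. Clspn followed at 2.46 on control day 2 and 4.15, 4.59 and 3.78 in the others, and Asf1b at 1.98 and then 5.07, 5.35 and 3.85. By role, all 5 nucleotide genes lay above the median of the 46 in the first 3 of these libraries and 4 of 5 in the last. The licensing genes were mixed, with 4, 2, 2 and 5 of 9 above that median: on control day 2 Mcm3 and Mcm6 stood at 0.78 and Cdc6 at 1.87, and on control day 3 Cdc6, with 9 against 2 UMIs, reached 5.06. Ung, at 0.57 (-0.08 to 1.17), -0.16 (-3.58 to 1.55), 0.47 (-5.44 to 2.48) and -0.88, did not differ from 0 beyond counting error in any of the 4. Its counts were low, with 2 UMIs in the mitotic cells of control day 3 and 1 in those of A20 cKO naive. Other genes also had intervals that reached 0: those wholly above 0 were 42, 42, 39 and 36 of the 46, and none lay below. All 46 genes were measured in the same cells and libraries, so these values are not independent of each other.

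Of 50 other replication genes, listed by function outside the 46, 10 (20%) were at least 2-fold higher and 1 lower on control day 1 against naive, 22 (44%) higher and 0 lower on day 2, and 20 (40%) higher and 0 lower on day 3, across the divide, where 4.66, 6.74 and 11.4% of all genes were higher. With zeros set to the floor of 3 UMIs the higher genes were 6, 21 and 19. Their medians were 0.09, 0.87 and 0.71 on the log2 scale, below those of the 46, and their summed level was 1189.8, 1412, 2065 and 1652 CPM in control naive, day 1, day 2 and day 3. In A20 cKO mice 6, 21 and 10 of the 50 (12, 42 and 20%) were higher on days 1, 2 and 3 and none lower, where 3.26, 4.86 and 3.79% of all genes were higher. The highest on control day 2 were Mcm8, a helicase of repair, Ticrr, an origin firing factor, and 2810417H13Rik, the gene for the PCNA-associated factor PAF15. Mcm8 and Ticrr had 0 UMIs in naive, so that their rank rests on the 0.5 UMI added, and 8.98 and 7.59 CPM on day 2, and 2810417H13Rik went from 6.79 to 137 CPM, a log2 ratio of 4.27 (3.49 to 5.34), having been 5.19 CPM on day 1. The lowest were Atrip, a checkpoint partner (-0.99, -1.89 to 0.14), Orc3, an origin recognition subunit (-0.88, -1.34 to -0.38), and Rrm2b, the reductase subunit used outside S phase (-0.68, -1.22 to -0.05). Rrm2b read 18.5, 12.8, 11.7 and 42.0 CPM in the control libraries, where Rrm2 read 3.09, 1.85, 53.9 and 21.3 CPM, and on day 2 of control mice the alternative subunit stood below the S phase one.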

How the data were processed

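Single-cell RNA was measured in 8 libraries made with 10x Genomics 3′ chemistry. The deposited matrices hold raw UMI counts per gene and cell, which the authors made with Cell Ranger 2.1.1 on mm10, per the labels, without normalization. Doublets were excluded at the sort, per the study's methods, and no doublet caller was run here. Cells with at least 1000 UMIs and 500 genes and at most 10% mitochondrial UMIs were kept, 93.3 to 100% of a library. Counts were summed per library and given as CPM. Log2 ratios used 0.5 UMI added to each sum, with exact conditional intervals at 95%, and a gene was called at least 2-fold from a log2 of 1. Shares have exact Clopper-Pearson intervals, and those of a naive to day 2 difference a normal approximation on Poisson counts. With 1 library per group no test was made, and replicates could not be left out in turn. Zeros have a floor of 3 UMIs.

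The genes, the lists, their roles and the comparisons were chosen with earlier results of these data known. All 46 genes are accounted for: the 29 with a mean of at least 20 CPM by their level in every library (and any other that a result turns on), the other 17 by range, and per comparison the 3 highest and 3 lowest ratios. Against control naive, genes with 0 UMIs there have a ratio to the floor of 3 UMIs. The 3 highest are then taken among the others, a choice made after their values were seen. From the 50 other replication genes the 3 highest and 3 lowest on control day 2 are named. Motifs were searched in RefSeq start regions of GRCm38.p6, and overlaps in GENCODE M21. The ratio script was tested on simulated counts. Cell Ranger counts only reads that match 1 gene, so reads shared with a near-identical copy are lost. A further microglia marker is not reported here. Alternatives are given in the closing section. Python 3.11.15, numpy 2.4.6, scipy 1.17.1, pandas 2.3.3 and matplotlib 3.10.9 were used.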

Additional observations from a re-analysis of the deposited data

Results flagged for a closer look

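Pola2, the second subunit of polymerase alpha, lay on opposite sides of 0 in the 2 genotypes on day 2 against naive: its log2 ratio was -0.63 (-1.13 to -0.06) in control and 0.72 (0.11 to 1.28) in A20 cKO mice. Slbp, the histone mRNA binding protein, did so on day 3 against naive, at 0.24 (0.01 to 0.47) in control and -0.19 (-0.39 to -0.01) in A20 cKO mice. With 1 library per group the difference itself was not tested for either gene, the ratios cover counting error only, and the control value of Slbp crosses the divide between libraries described above.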

How the results depend on the processing

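Across the alternatives for scaling, cell filters, gene floor and added UMIs, the count of genes at least 2-fold higher ranged from 20 to 26 at control day 1, from 37 to 41 at day 2, from 26 to 30 at day 3 and from 24 to 25 for day 2 against day 1. It ranged from 19 to 23 in A20 cKO naive against control naive, and from 12 to 15, 24 to 31 and 8 to 14 on A20 cKO days 1, 2 and 3. The count in A20 cKO day 3 against control day 3 became 2 with the mean of cell CPM and 2 with cells thinned before summing. No named ratio of at least 2-fold in either direction changed sign, and the signs of smaller ones were not checked. Of all named ratios, 1 moved beyond its interval: Mcm3 on control day 2 against day 1, at 0.03 with cells thinned before summing (the cause was not tested). Without a minimum on UMIs per gene, which adds genes under 100 UMIs, the share of all genes at least 2-fold higher went from 3.26 to 22.1%, from 4.86 to 23.0% and from 3.79 to 23.0% on A20 cKO days 1, 2 and 3, from 5.16 to 12.4% for control day 2 against day 1, and from 3.28 to 20.9% for A20 cKO day 3 against control day 3. In the A20 cKO comparisons among these, a gene with 0 UMIs in both libraries counts as 2-fold higher, because the library compared against is larger. Setting zeros to the floor of 3 UMIs was chosen after seeing the data.

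Shares of cells depend on the cut and the depth by construction. In the order control naive, day 1, day 2, day 3, then A20 cKO naive, day 1, day 2, day 3, they were 13.3, 29.5, 60.3, 23.7, 17.7, 34.0, 32.3 and 23.0% for 3 or more genes. For 8 or more genes they were 0.199, 1.21, 11.9, 6.02, 2.99, 5.30, 10.4 and 7.06%. Without thinning they were 3.70, 31.1, 60.2, 18.3, 9.82, 26.0, 33.6 and 24.2%, and thinned to 1000 UMIs 0, 1.41, 9.68, 4.58, 2.33, 4.74, 8.85 and 6.27%. Another random thinning gave 7.53% on control day 1, and the other 7 shares of cells with 5 or more genes stayed within their intervals under it. Of 48 shares of single genes, 5 did not, among them Rrm2 on control day 1 (0.0930%) and day 2 (6.98%). No paired analysis was possible because each group has 1 library. Small libraries limit the values: 3 UMIs were 1.85 CPM in control naive and 0.190 CPM in control day 2.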
